A study of Homo sapiens with 24 samples.

Results

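The TNF superfamily of ligands and the TNF receptor superfamily were examined in HEK293 cells, a line derived from human embryonic kidney, that over-expressed SIRT6 or its H133W mutant and were stimulated or not with TNFα. Members were found by gene symbol: probe sets whose platform symbol begins with TNFSF or TNFRSF, or is TNF, LTA, LTB, LTBR, FAS, FASLG, CD27, CD40, CD70, NGFR, EDAR, EDA2R or RELT. Of 46 names looked for, 43 had a probe set of their own, among 19775 genes with one on the array, and each gene was followed through the probe set with its highest mean over all 24 arrays. CD40LG, TNFSF12 and TNFRSF6B were not analysed here. The 43 comprised 15 ligands, 8 receptors with a death domain, 3 decoy receptors and 17 other receptors.

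Ligands of this family are mostly membrane proteins that act as trimers, on the cell that makes them, on its neighbours or after release. Their receptors either carry a death domain, through which they can assemble complexes that start apoptosis, or bind TRAF adaptors directly, and both kinds can activate NFκB. Decoy receptors bind a ligand without passing on its signal. TNFα itself, the product of TNF, acts through TNFR1, encoded by TNFRSF1A, and TNFR2, encoded by TNFRSF1B, and NFκB in turn drives the transcription of several family members.

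There were 8 conditions with 3 arrays each, labelled as biological replicates of whole-genome Affymetrix expression arrays. Cells were transfected for 24 h with pCDNA3 carrying Flag-tagged SIRT6 with its H133W change (called H133W, a mutant described as deacetylase-dead), with pCDNA3 carrying Flag-tagged wild type SIRT6, with empty pCDNA3, or were left without DNA (untransfected). Each kind of cell then received TNFα at 10 ng/ml or the PBS/BSA vehicle, and the sources differ on how long, the methods giving 4 h and the design text 1 h. Transfection was transient, so only part of each culture carried the plasmid, every group kept the cells' own SIRT6 gene, and a bulk RNA sample cannot tell fewer expressing cells from less RNA per cell. Values are signals on a log2 scale, and a change is the difference of 2 group means on that scale. A member is called where the Benjamini-Hochberg adjusted p was under 0.05 over all probe sets and the fold was over 1.5.

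The array labels were compared with the data before the family was described. Of 6 markers listed for HEK293 cells, 4 lay above the median of all values (NEFL averaged 12.34, KRT18 10.83, KRT8 9.63 and INA 7.85). The neurofilament gene NEFM (5.11) and PAX2 (4.99) lay below it, and none of 12 blood or 5 endothelial markers lay above it. One SIRT6 probe set (233179_x_at) averaged 9.64 in H133W cells with TNFα and 9.43 in SIRT6 cells with TNFα, against 8.84 in empty vector cells with TNFα, and 9.73 in H133W cells and 9.34 in SIRT6 cells, against 8.58 in empty vector cells, without it. Of these 4 differences only H133W against empty vector without TNFα was called (1.15, adjusted p = 0.036). The other SIRT6 probe set (219613_s_at) passed the adjusted p in 1 of the same 4, H133W against empty vector with TNFα (0.48, adjusted p = 0.0073), under the fold threshold. Which part of the transcript these probe sets read, and so whether they see the plasmid's RNA, was not given in the sources used here. The third array of H133W with TNFα stood apart, with an actin signal from the 3′ end 3.03 above that from the 5′ end, against 2.05 on the second empty vector array and 1.33 to 1.79 on the other 22 arrays, so many values of H133W cells are also given without it (for changes that were not called, an alternative chosen after seeing the data).

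TNFα raised a small and recurring set of family members. TNF, TNFRSF9 and TNFSF15 rose and TNFRSF19 fell in all 4 kinds of cell. With TNFα, 4 of 43 members were called in H133W cells, against 1.42% of all genes, and 4 in SIRT6 cells, against 1.28% of all genes. The count was 6 in empty vector cells, against 1.25% of all genes, and 6 in untransfected cells, against 1.18% of all genes. The members called higher numbered 3, 3, 5 and 5 in those kinds of cell, against 0.774%, 0.779%, 0.784% and 0.845% of all genes, and TNFRSF19 was the 1 called lower in each, against 0.642%, 0.506%, 0.47% and 0.334% of all genes. The median member moved little, by 0.05 in H133W, 0.07 in SIRT6, 0.05 in empty vector and 0.02 in untransfected cells, against medians of 0.01, -0.03, -0.04 and -0.02 over all genes. In all, 8 members were called in at least 1 of the 12 comparisons, and 35 in none, each read at its probe set of highest mean.

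**Figure D1:**
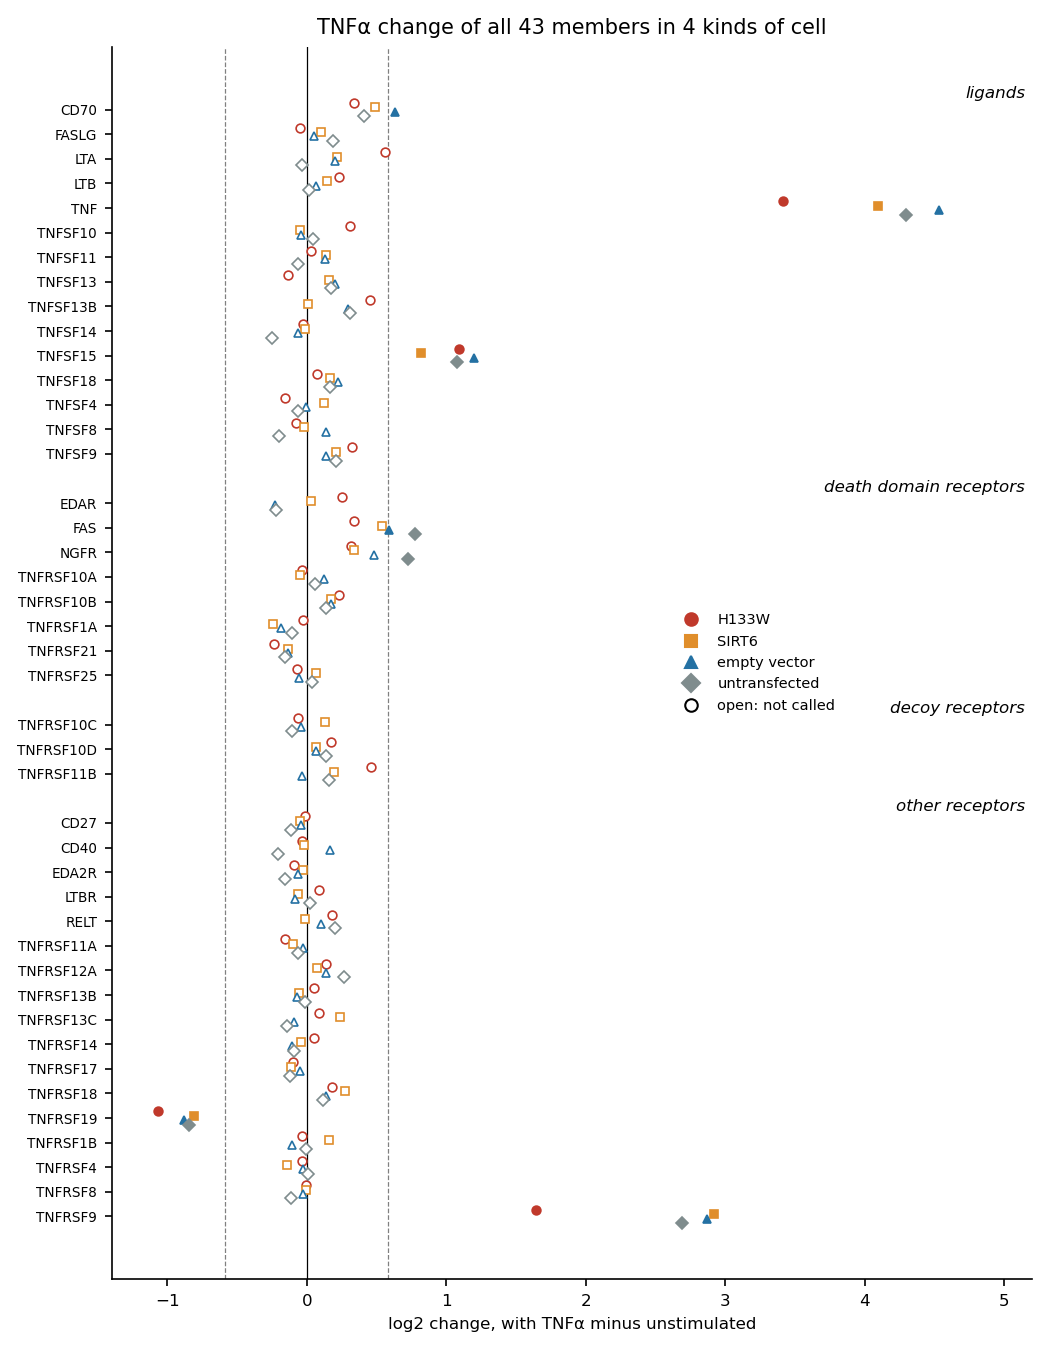
Log2 change with TNFα (treated minus unstimulated, 3 arrays each) of the 43 members, grouped by role, in H133W, SIRT6, empty vector and untransfected cells. Filled symbols were called, open symbols were not, and dashed lines mark the 1.5-fold threshold. TNF (3.41 to 4.54), TNFRSF9 (1.65 to 2.92) and TNFSF15 (0.82 to 1.20) lie to the right in every kind of cell and TNFRSF19 (-1.07 to -0.81) to the left, while most members sit between the dashed lines.

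Because NFκB acts through short DNA sites near its target genes, the 250 bases before the RefSeq start (GRCh38.p14) of TNF and of TNFRSF9, the members with the largest rise in these cells, are shown for reference. Capitals mark exact matches to a 10-base κB consensus, GGGRNNYYCC, searched on both strands. There R stands for A or G, Y for C or T and N for any base.
TNF, chr6:31575315-31575564, plus strand: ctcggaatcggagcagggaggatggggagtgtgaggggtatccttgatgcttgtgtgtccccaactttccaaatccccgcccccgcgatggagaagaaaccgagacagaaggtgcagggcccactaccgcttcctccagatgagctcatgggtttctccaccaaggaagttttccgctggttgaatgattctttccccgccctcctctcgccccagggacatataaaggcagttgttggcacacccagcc
TNFRSF9, chr1:7940840-7941089, minus strand: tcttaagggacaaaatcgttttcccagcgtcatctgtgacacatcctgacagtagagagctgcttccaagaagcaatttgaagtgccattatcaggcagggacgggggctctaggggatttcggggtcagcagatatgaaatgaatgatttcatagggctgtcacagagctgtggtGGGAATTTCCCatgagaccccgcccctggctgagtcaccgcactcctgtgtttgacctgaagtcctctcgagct
The capitals in TNFRSF9 are 2 overlapping matches on opposite strands, 74 to 64 bases before the start. The TNF window held no exact match to this pattern. Sites that depart from the pattern were not searched for, so the TNF window may still hold a κB site. Of the 29 members with a promoter in the table, 9 (31%) held a match in such a window, against 11.8% of all 27303 genes there and 9.96% of all 35114 promoters, and the 9 were FAS, LTA, LTB, TNFRSF14, TNFRSF19, TNFRSF9, TNFSF11, TNFSF13 and TNFSF14. TNFSF15 and TNFSF13B held none, and CD70 and NGFR had no entry. A match describes letters only, and 6 of the 9 members were called in no comparison.

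Among the ligands, TNF gave the widest response. The gene lies on chromosome 6 (31575565 to 31578336). Its signal on the 3 H133W arrays with TNFα was 8.68, 8.43 and 7.98, against 5.03, 4.65 and 5.18 on the unstimulated H133W arrays. SIRT6 cells gave 8.40, 8.54 and 8.47 with TNFα, against 4.48, 4.41 and 4.23 unstimulated. Every stimulated array stood far above every unstimulated one, and all unstimulated signals of TNF lay below the median of all values (5.34). Empty vector cells gave 8.40, 8.51 and 8.36 with TNFα, against 4.26, 3.43 and 3.97 unstimulated, and untransfected cells 8.34, 8.15 and 8.09 with TNFα, against 3.63, 4.30 and 3.77 unstimulated. The change was 3.41 in H133W (10.6-fold, adjusted p = 6.95e-10), 4.10 in SIRT6 (17.1-fold, adjusted p = 2.81e-11), 4.54 in empty vector (23.2-fold, adjusted p = 4.94e-12) and 4.30 in untransfected cells (19.6-fold, adjusted p = 1.11e-11), each with an SE of 0.20.

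TNFSF15, which encodes TL1A, the ligand of the death domain receptor TNFRSF25, rose less and from a signal below the median of all values (5.34). H133W cells read 4.86, 4.48 and 4.68 with TNFα, against 3.35, 3.58 and 3.82 unstimulated. In SIRT6 cells the arrays read 4.94, 4.92 and 4.42 with TNFα, against 3.99, 3.89 and 3.93 unstimulated. Both sets were clear of each other in each kind of cell, and came nearest through the third stimulated arrays of SIRT6 and untransfected cells. Empty vector cells read 5.43, 4.80 and 5.28 with TNFα, against 4.08, 4.03 and 3.80 unstimulated, and untransfected cells 5.23, 5.62 and 4.84 with TNFα, against 4.26, 3.78 and 4.41 unstimulated. The changes were 1.09 (adjusted p = 0.0034), 0.82 (adjusted p = 0.036), 1.20 (adjusted p = 0.0015) and 1.08 (adjusted p = 0.0045) in H133W, SIRT6, empty vector and untransfected cells, with an SE of 0.20. The call in SIRT6 cells was lost without SIRT6 replicate 1, 2 or 3 or without replicate 1 or 2 of SIRT6 with TNFα (adjusted p = 0.0997 to 0.19), and the gene's other probe set (221085_at) changed by at most 0.16 with no call. Its receptor TNFRSF25 was called in no comparison.

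CD70, the ligand of CD27, was called only in empty vector cells, at 5.34, 5.51 and 5.53 with TNFα, against 4.93, 4.87 and 4.69 unstimulated (0.63, SE 0.11, adjusted p = 0.0024). It was also higher on every stimulated array of the other kinds of cell. H133W cells gave 5.23, 5.19 and 5.26 with TNFα, against 4.94, 4.99 and 4.73 unstimulated (0.34, adjusted p = 0.10). SIRT6 cells gave 5.42, 5.29 and 5.50 with TNFα, against 4.82, 4.84 and 5.07 unstimulated (0.49, adjusted p = 0.020, under the fold threshold). Untransfected cells gave 5.34, 5.18 and 5.71 with TNFα, against 5.01, 4.95 and 5.04 unstimulated (0.41, adjusted p = 0.076). The call in empty vector cells was lost without vector replicate 3 (0.56), and the difference between kinds of cell passed in none of the interaction tests. The remaining 12 ligands were not called with TNFα. The closest was LTA, lymphotoxin alpha, whose gene neighbours TNF, at 4.31, 4.05 and 4.90 in H133W cells with TNFα, against 3.82, 3.92 and 3.83 unstimulated (0.56, adjusted p = 0.066). The third TNFα array was the highest, and without it the change was 0.32 (adjusted p = 0.27). TNFSF9, the ligand of TNFRSF9, changed by 0.32 in the same cells with all arrays (adjusted p = 0.084) and by 0.25 without that array (adjusted p = 0.27).

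**Figure D2:**
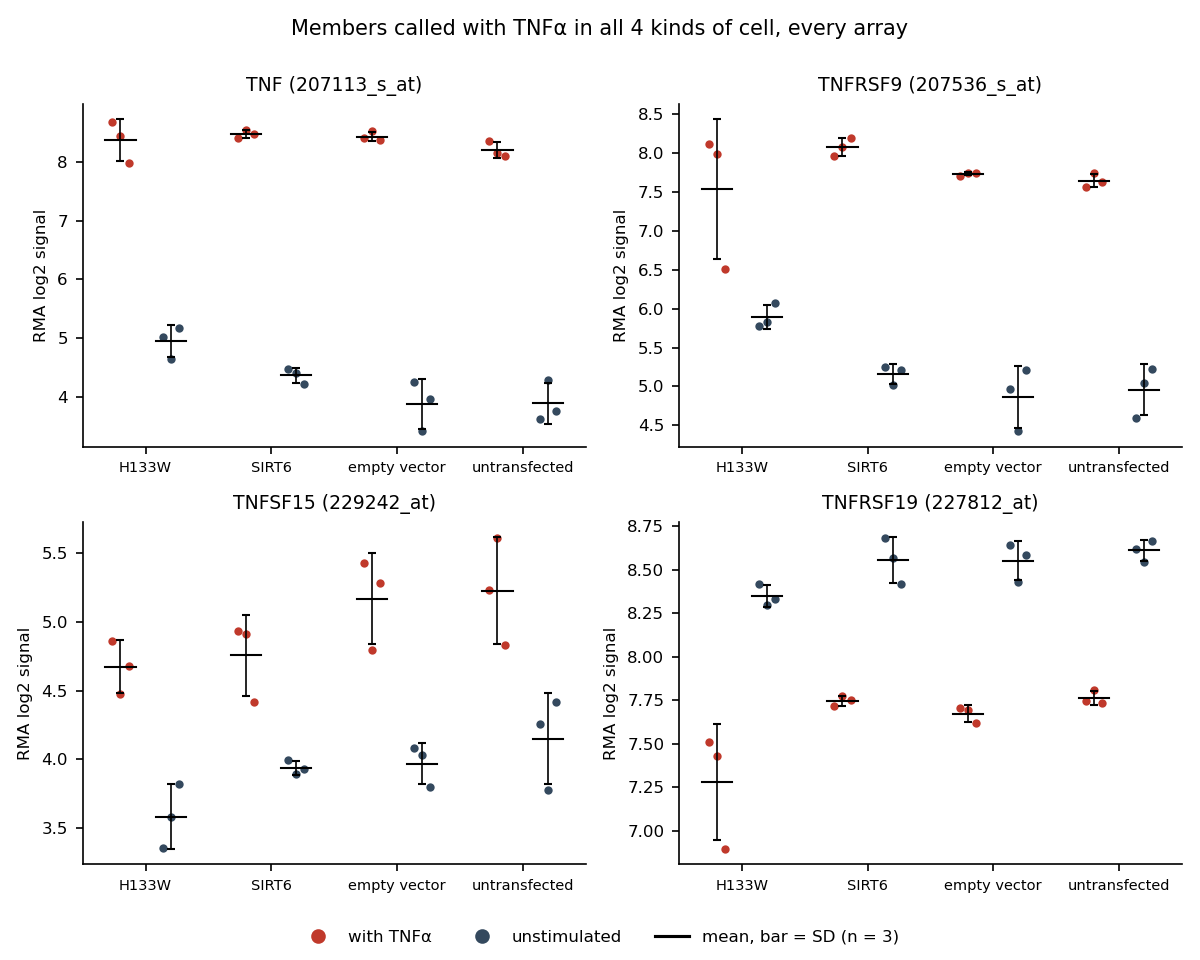
RMA log2 signal of TNF, TNFRSF9, TNFSF15 and TNFRSF19 on each of the 24 arrays, with TNFα left of unstimulated in each kind of cell, lines for group means and bars for the SD (n = 3). No stimulated array overlaps the unstimulated arrays of its kind of cell, and the third TNFα array of H133W lies low for TNFRSF9 (6.51) and TNFRSF19 (6.90).

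Neither receptor for TNFα itself was called in any comparison. TNFRSF1A read 8.78, 8.72 and 9.01 in H133W cells with TNFα and 8.51, 8.67 and 8.47 in SIRT6 cells with TNFα, against 8.56, 8.62 and 8.77 in empty vector and 8.63, 8.72 and 8.52 in untransfected cells with TNFα. Unstimulated, it averaged 8.87 ± 0.02 in H133W and 8.79 ± 0.04 in SIRT6 cells, against 8.84 ± 0.12 in empty vector and 8.73 ± 0.20 in untransfected cells (SD, n = 3 each). Its change ran between -0.24 and 0.29 over the 12 comparisons, with 95% intervals that reached -0.45 and 0.49, and the lowest adjusted p was 0.16. TNFRSF1B lay below the median of all values, at 4.01 to 4.68 over the 24 arrays. It changed by -0.25 to 0.16, with 95% intervals that reached -0.49 and 0.39 and a lowest adjusted p of 0.41. No change passed the test for either gene, and changes within these intervals are not excluded.

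Among the 8 receptors with a death domain, 0 were called with TNFα in H133W and SIRT6 cells, 1 in empty vector cells (FAS) and 2 in untransfected cells (FAS and NGFR). FAS, the receptor for FAS ligand and a classical starter of apoptosis, read 9.59, 9.51 and 9.23 in H133W cells with TNFα, against 9.09, 9.17 and 9.06 unstimulated. SIRT6 cells read 9.41, 9.50 and 9.44 with TNFα, against 8.82, 8.94 and 8.97 unstimulated. The stimulated arrays were again the higher ones throughout, with their levels close together across the kinds of cell. Empty vector cells read 9.40, 9.41 and 9.45 with TNFα, against 8.74, 8.90 and 8.85 unstimulated, and untransfected cells 9.46, 9.50 and 9.48 with TNFα, against 8.76, 8.62 and 8.74 unstimulated. The change was 0.33 in H133W (adjusted p = 0.021), 0.54 in SIRT6 (adjusted p = 0.00027), 0.59 in empty vector (adjusted p = 9.55e-05) and 0.78 in untransfected cells (adjusted p = 2.08e-06), with an SE of 0.08. The adjusted p passed in all 4, and the fold threshold in the last pair only. In empty vector cells the fold was 1.51, and the call was lost without vector replicate 1 (0.55) or without replicate 3 of vector with TNFα (0.58).

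NGFR, the p75 receptor for neurotrophins, was called in untransfected cells, at 5.46, 5.61 and 5.57 with TNFα, against 4.78, 5.00 and 4.69 unstimulated (0.73, SE 0.11, adjusted p = 0.00074). Empty vector cells gave 5.50, 5.23 and 5.44 with TNFα, against 4.80, 5.02 and 4.92 unstimulated (0.48, adjusted p = 0.031, under the fold threshold). The groups did not overlap in either kind of cell. The change was smaller in SIRT6 cells, at 5.49, 5.17 and 5.57 with TNFα, against 5.12, 5.01 and 5.09 unstimulated (0.34, adjusted p = 0.20). H133W cells gave 5.28, 5.08 and 5.17 with TNFα, against 4.99, 4.97 and 4.62 unstimulated (0.31, adjusted p = 0.15). Both of these missed the test although each stimulated array was above each unstimulated one.

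**Figure D3:**
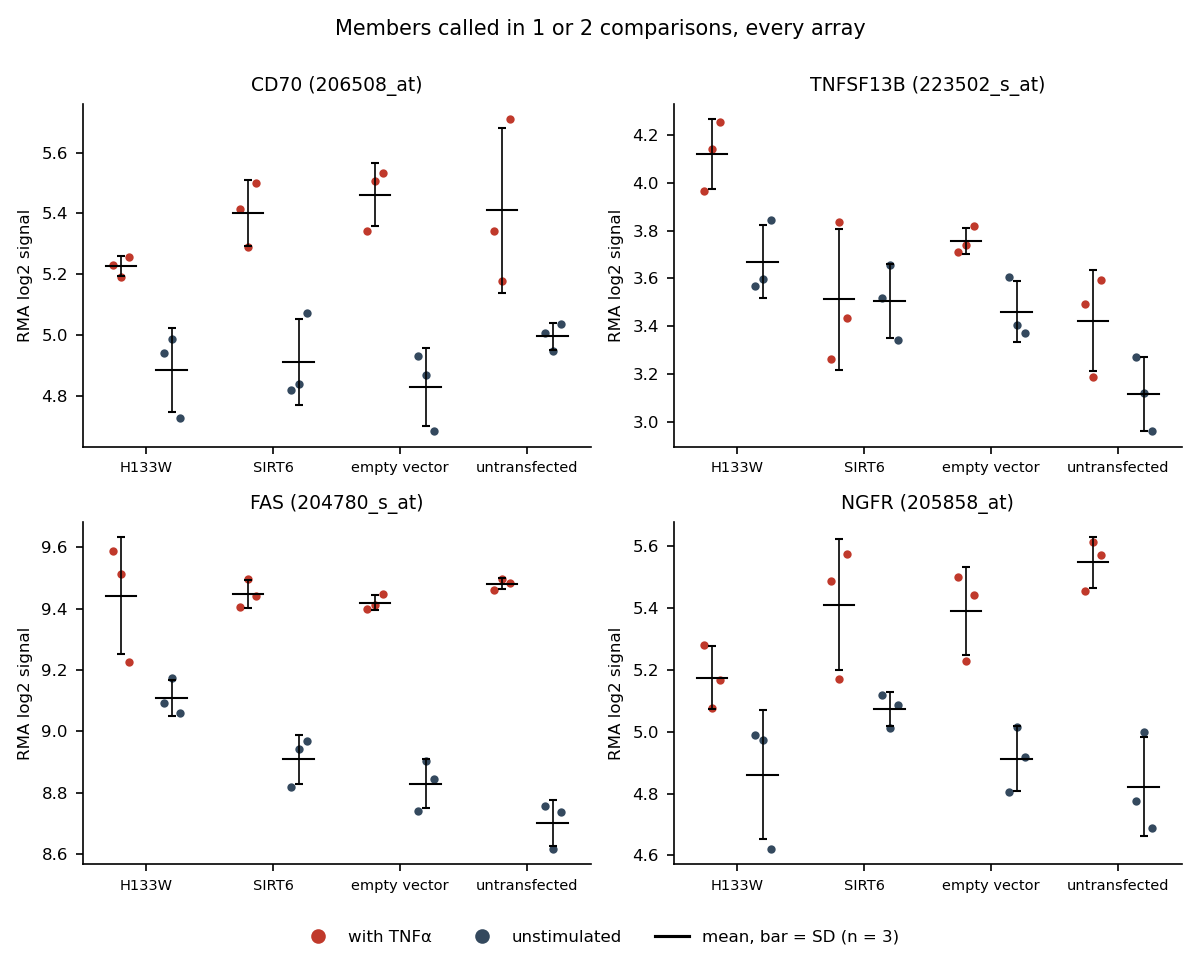
RMA log2 signal of CD70, TNFSF13B, FAS and NGFR on each array, drawn with TNFα left of unstimulated, group means as lines and the SD as bars (n = 3). FAS reaches 9.23 to 9.59 on all stimulated arrays, while its unstimulated arrays lie between 8.62 and 9.17 and are highest in H133W cells.

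How FAS and TNFRSF10B appeared depended on the probe set. All 5 FAS probe sets were called in untransfected cells (0.77 to 0.89), 3 of 5 in empty vector cells (0.56 to 0.71), 1 of 5 in SIRT6 cells (0.50 to 0.68) and 0 of 5 in H133W cells (0.05 to 0.47). Without the third TNFα array of H133W those 5 changed by 0.37 to 0.64 in H133W cells, and 233820_at was then called (adjusted p = 0.0012). TNFRSF10B, the TRAIL receptor also known as DR5, was followed through 209295_at, which read 12.20 to 12.56 on the 24 arrays, near the top of the scale (13.75). That probe set changed by 0.23 in H133W (adjusted p = 0.020), 0.17 in SIRT6, 0.17 in empty vector and 0.14 in untransfected cells and was not called. In untransfected cells 209294_x_at (0.77, adjusted p = 8.95e-05) and 210405_x_at (0.79, adjusted p = 3.27e-05) were both called, as they were in empty vector cells (0.65 and 0.64). Neither was called in H133W (0.31 and 0.40) or SIRT6 cells (0.52 and 0.56), and the fourth, 1556645_s_at, was called in none. No decoy receptor was called. TNFRSF21, or DR6, fell short of the test in H133W cells (-0.23, adjusted p = 0.054), with TNFα arrays at 10.29, 10.19 and 10.01, against 10.45, 10.38 and 10.37 unstimulated, and changed by -0.16 without the third TNFα array (adjusted p = 0.20).

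Of the 17 other receptors, TNFRSF9 was called higher and TNFRSF19 lower with TNFα in all 4 kinds of cell. TNFRSF9, or CD137, is known as a costimulatory receptor of activated T cells. It read 8.12, 7.997 and 6.51 in H133W cells with TNFα, against 5.78, 5.83 and 6.07 unstimulated. SIRT6 cells read 7.97, 8.08 and 8.20 with TNFα, against 5.25, 5.01 and 5.21 unstimulated. One stimulated H133W array was thus much nearer to its unstimulated set than any other. Empty vector cells read 7.71, 7.75 and 7.75 with TNFα, against 4.97, 4.43 and 5.21 unstimulated, and untransfected cells 7.57, 7.74 and 7.63 with TNFα, against 4.59, 5.05 and 5.23 unstimulated. The change was 1.65 in H133W (adjusted p = 0.0016), 2.92 in SIRT6 (adjusted p = 1.47e-06), 2.87 in empty vector (adjusted p = 1.87e-06) and 2.69 in untransfected cells (adjusted p = 4.22e-06), with an SE of 0.28. Without that array, the one whose actin signal stood apart, the change in H133W cells was 2.16 (adjusted p = 2.28e-07). All 3 TNFRSF9 probe sets were called in every kind of cell, with changes of 1.65 to 2.23 in H133W, 2.21 to 3.16 in SIRT6, 1.64 to 2.89 in empty vector and 1.72 to 3.16 in untransfected cells.

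TNFRSF19, or TROY, a receptor expressed in the nervous system and in epithelia, was the only member called lower. Its H133W arrays read 7.51, 7.43 and 6.90 with TNFα, against 8.42, 8.30 and 8.33 unstimulated. SIRT6 cells read 7.72, 7.77 and 7.75 with TNFα, against 8.68, 8.57 and 8.42 unstimulated. The fall left no overlap in either. Empty vector cells read 7.71, 7.70 and 7.62 with TNFα, against 8.64, 8.43 and 8.59 unstimulated, and untransfected cells 7.74, 7.81 and 7.74 with TNFα, against 8.62, 8.55 and 8.67 unstimulated. The changes were -1.07 (adjusted p = 4.17e-06), -0.81 (adjusted p = 0.00015), -0.88 (adjusted p = 5.65e-05) and -0.85 (adjusted p = 8.30e-05) in H133W, SIRT6, empty vector and untransfected cells, with an SE of 0.11. Without the third TNFα array of H133W, the lowest, the change in H133W cells was -0.88 (adjusted p = 4.87e-07). The other TNFRSF19 probe sets were not called, with changes of -0.41 to -0.25 (223827_at) and -0.18 to -0.01 (224090_s_at).

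**Figure D4:**
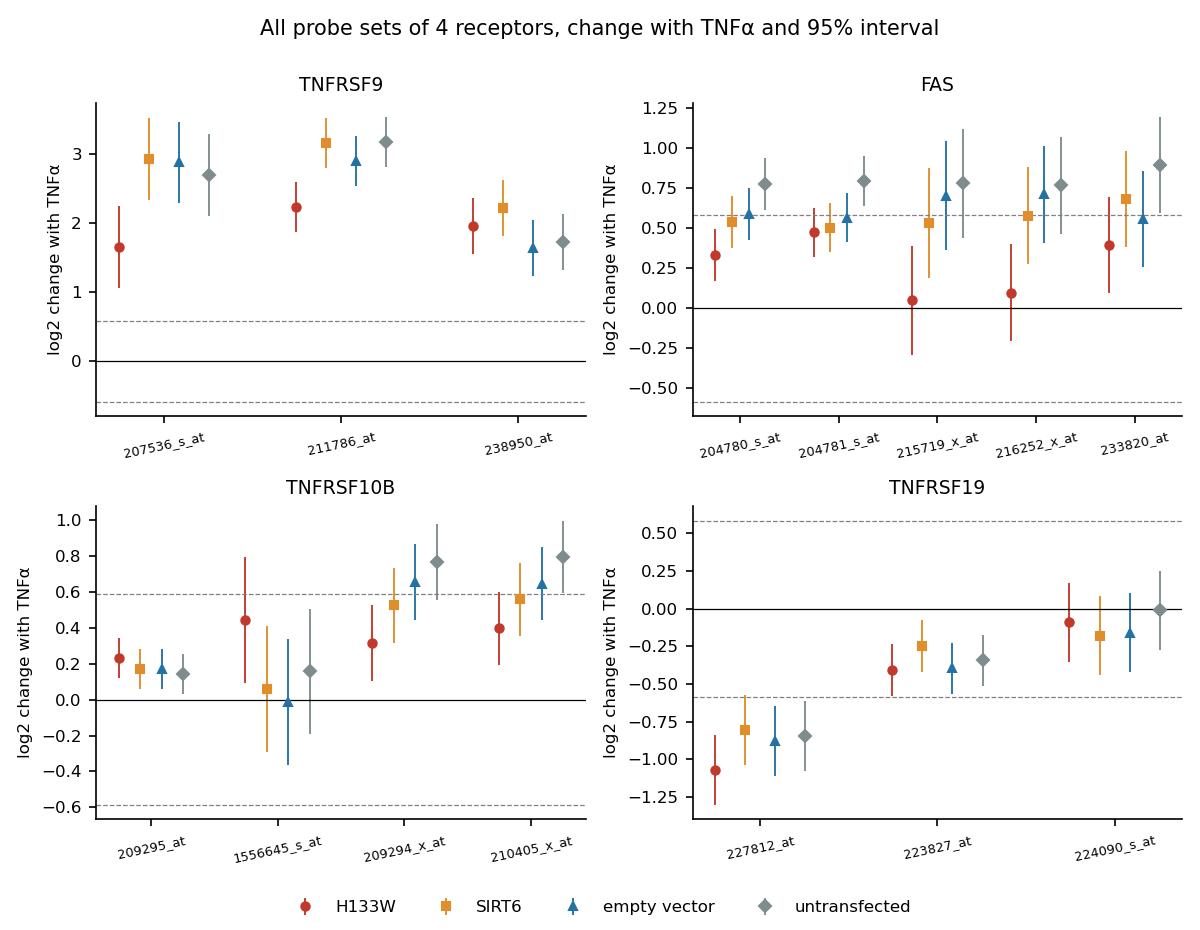
Log2 change with TNFα, with 95% intervals from the fit, of every probe set of TNFRSF9, FAS, TNFRSF10B and TNFRSF19 in H133W, SIRT6, empty vector and untransfected cells, with the probe set followed in the text first in each panel and dashed lines at the 1.5-fold threshold. The 3 TNFRSF9 probe sets lie above the threshold in every kind of cell, while 1 of 3 TNFRSF19 probe sets lies below it.

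Whether the plasmids changed the response was asked by subtracting the TNFα change in one kind of cell from that in another. No member passed in any of the 4 such tests, and the share of all genes that did was 0.0101% for H133W minus empty vector and 0% for H133W minus SIRT6, SIRT6 minus empty vector and empty vector minus untransfected. At an unadjusted p under 0.05 the members numbered 5, 4, 0 and 2 in that order. The share of all genes at an unadjusted p under 0.05 was not counted, here or below, so no such count is read as a result. The smallest unadjusted p was that of TNF, whose response was 3.41 in H133W and 4.54 in empty vector cells, a difference of -1.12 (95% interval -1.71 to -0.54, adjusted p = 0.57). TNFRSF9 responded by 1.65 in H133W and 2.87 in empty vector cells, a difference of -1.23 (adjusted p = 0.57). Without the third TNFα array of H133W these differences were -0.93 and -0.71, and neither passed. For FAS the difference was -0.26 (adjusted p = 0.57), and -0.15 without that array.

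Without TNFα, 1 of 43 members differed between H133W and empty vector cells, against 0.865% of all genes (0.804% higher), so that the share of the family called, 2.33%, rests on TNF alone. TNF read 5.03, 4.65 and 5.18 in H133W cells, against 4.26, 3.43 and 3.97 in empty vector cells, a change of 1.06 (2.09-fold, adjusted p = 0.0040). All H133W arrays were above all empty vector arrays, but all 6 signals lay below the median of all values (5.34). SIRT6 cells read 4.48, 4.41 and 4.23, which overlapped the empty vector arrays (0.49, adjusted p = 0.79), and H133W differed from SIRT6 by 0.58 (adjusted p = 0.32). The call for TNF held without any 1 of the 6 arrays (0.84 to 1.25) and was lost when these 6 arrays were fitted alone (adjusted p = 0.084). The second of the empty vector arrays, the lowest for TNF, also had a raised ratio of 3′ to 5′ actin signal.

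TNFRSF9 moved the same way and just missed. Its unstimulated H133W arrays read 5.78, 5.83 and 6.07, against 4.97, 4.43 and 5.21 in empty vector cells, a change of 1.03 (adjusted p = 0.053). The groups did not overlap. Without the third TNFα array of H133W, which is in neither group but enters the common estimate of the spread, the same change passed (adjusted p = 0.00054), as did its difference from SIRT6 cells (0.74, adjusted p = 0.029 against 0.41 with all arrays). A second probe set of the gene (211786_at) was called with all arrays (0.70, adjusted p = 0.027) and the remaining one (238950_at) was not (0.23, adjusted p = 0.65). FAS (0.28, adjusted p = 0.059), TNFRSF4 (0.32, adjusted p = 0.056) and TNFRSF12A (0.37, adjusted p = 0.069) also missed the test in unstimulated H133W cells. The adjusted p of the same changes was 0.0070, 0.026 and 0.038 without the third TNFα array of H133W, which again enters only the spread, and all were under the fold threshold. The other TNFRSF4 probe set (214228_x_at) changed by -0.07 (adjusted p = 0.85, and 0.80 without that array). The 5 FAS probe sets changed by -0.22 (233820_at) to 0.42 (215719_x_at), and 0 were called with all arrays.

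With TNFα present, 0 of 43 members were called between H133W and empty vector cells, against 1.72% of all genes. Unadjusted, 13 had p under 0.05, with no share over all genes counted at that level. TNF differed by -0.06 (95% interval -0.47 to 0.35) and TNFRSF9 by -0.20 (95% interval -0.79 to 0.39). These differences took the opposite sign without the third TNFα array of H133W, at 0.13 (adjusted p = 0.86) for TNF and 0.32 (adjusted p = 0.43) for TNFRSF9, and neither passed. There were 4 members past the adjusted p but under the fold, also without a share over all genes. TNFRSF11A, or RANK, the receptor for the osteoclast factor RANKL, read 8.50, 8.55 and 8.34 in H133W cells, against 8.87, 8.69 and 8.77 in empty vector cells (-0.32, adjusted p = 0.032). TNFRSF19 changed by -0.39 (adjusted p = 0.044). TNFRSF4, or OX40, a costimulatory receptor, read 7.83, 7.73 and 7.98 in H133W cells, against 7.53, 7.50 and 7.60 in empty vector cells (0.31, adjusted p = 0.048). TNFRSF12A, or Fn14, the receptor for TWEAK, read 6.67, 6.48 and 6.76 in H133W cells, against 6.26, 6.23 and 6.32 in empty vector cells (0.37, adjusted p = 0.049). None of these 4 pairs of groups overlapped, which was not counted over all genes and is no separate support. All 4 missed the adjusted p without the third TNFα array of H133W. The changes were then -0.26 for TNFRSF11A (adjusted p = 0.13), -0.20 for TNFRSF19 (adjusted p = 0.18), 0.24 for TNFRSF4 (adjusted p = 0.19) and 0.30 for TNFRSF12A (adjusted p = 0.18).

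**Figure D5:**
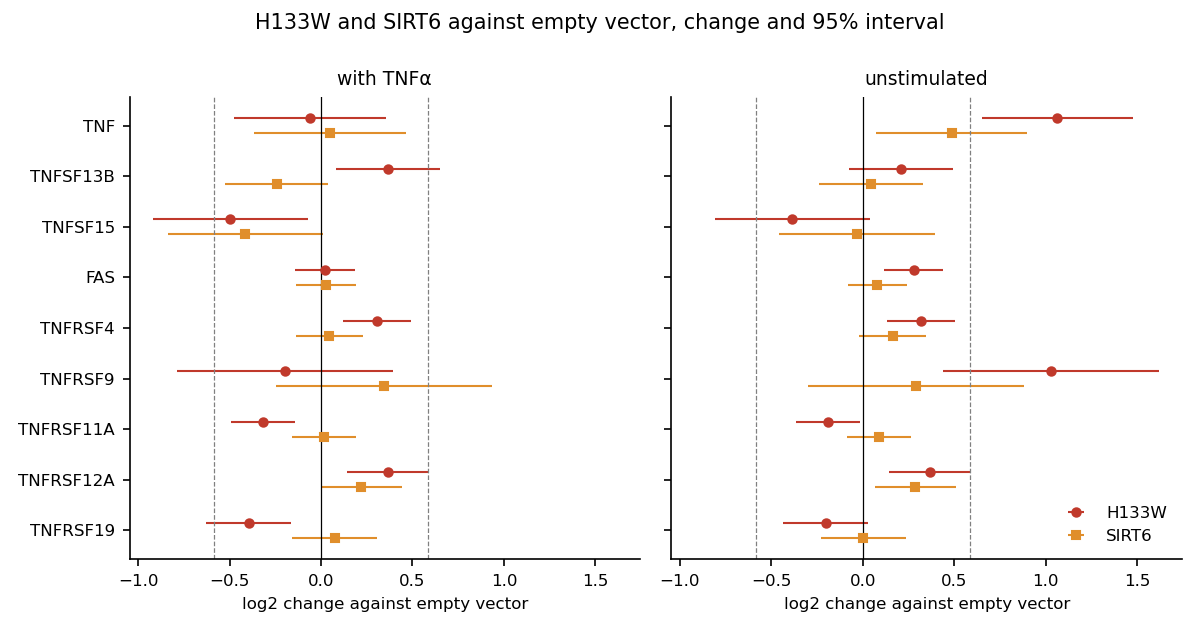
Log2 change of 9 members in H133W and SIRT6 cells against empty vector cells, with TNFα (left) and unstimulated (right), with 95% intervals from the fit and dashed lines at the 1.5-fold threshold. TNF (1.06) and TNFRSF9 (1.03) lie highest in unstimulated H133W cells, and no interval for SIRT6 lies wholly beyond the threshold.

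No member was called between wild type SIRT6 and empty vector cells, 0 of 43 without TNFα, against 0.0506% of all genes, and 0 of 43 with TNFα, against 0.101% of all genes. Unadjusted, 2 and 3 members had p under 0.05, with no share over all genes counted. H133W differed from SIRT6 in 0 of 43 members without TNFα, against 0.167% of all genes. At an unadjusted p under 0.05 there were 6, again without a share over all genes. With TNFα 1 of 43 differed, against 0.415% of all genes (0.344% higher). That member was TNFSF13B, or BAFF, a survival factor for B cells, at 3.97, 4.14 and 4.26 in H133W cells, against 3.26, 3.84 and 3.44 in SIRT6 cells (0.61, SE 0.14, adjusted p = 0.033). The groups did not overlap, but these signals lay below the median of all values, and the call was lost without SIRT6_TNFa replicate 1 or 3 or without H133W_TNFa replicate 2 or 3 (adjusted p = 0.051 to 0.16). Its other probe set (223501_at) was not called (0.25, adjusted p = 0.21). TNFRSF19 passed the adjusted p but not the fold in the same comparison (-0.47, adjusted p = 0.044), and missed it without the third TNFα array of H133W (-0.28, adjusted p = 0.12).

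Transfection with empty plasmid gave no call. Empty vector against untransfected cells gave 0 of 43 without TNFα, against 0.0607% of all genes, and 0 of 43 with TNFα, against 0.0303% of all genes. At an unadjusted p under 0.05 there were 7 and 4 members in that order, without a share over all genes. The nearest was TNFRSF4, at 7.35, 7.61 and 7.74 in empty vector cells, against 7.21, 7.05 and 7.20 in untransfected cells (0.42, adjusted p = 0.052). Its arrays did not overlap, and with TNFα they differed by 0.38 (adjusted p = 0.10).

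Read at the probe set of highest mean, the other 35 members were called nowhere. TNFRSF10B is among them, although 2 of its 4 probe sets were called in untransfected and in empty vector cells. At the probe set of highest mean, changes of the 35 over the 12 comparisons ran between -0.38 and 0.56. Of these members, 28 stayed within 0.25 of 0 in all 4 comparisons with TNFα. Signal was above the median of all values in at least 1 group for 18 of 28 receptors and for 3 of 15 ligands (TNF, CD70 and TNFSF9), a description of probe set brightness without detection calls. The spread between replicates within a group was 0.04 to 0.38 (SD, median 0.14).

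Of 36 listed partners that carry the signal of these receptors (adaptors, kinases, ubiquitin enzymes and their inhibitors), 33 were measured here. TNFα raised TNFAIP3, which encodes A20, a ubiquitin-editing inhibitor of NFκB, by 3.27 in H133W, 3.63 in SIRT6, 3.62 in empty vector and 3.87 in untransfected cells. CYLD, a deubiquitinase that also restrains the pathway, was called in H133W (0.63), empty vector (0.59) and untransfected cells (0.64), but not in SIRT6 cells. TNIP1, a protein that binds A20, was called in H133W cells only (0.59). The folds of TNIP1 there (1.502) and of CYLD in empty vector cells (1.503) barely passed the threshold. No other partner was called with TNFα, and none was called lower. Of the 33, 3 were called higher in H133W, 1 in SIRT6, 2 in empty vector and 2 in untransfected cells. The shares of all genes called higher were 0.774%, 0.779%, 0.784% and 0.845% in that order. Partner values were not computed without the third TNFα array of H133W. None was called in the 8 comparisons between kinds of cell or in the 4 interactions. Calls of CYLD and TNIP1 in some kinds of cell only are therefore not read as a difference between them.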

How the data were processed

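Total RNA of 24 HEK293 cultures was hybridized to Affymetrix whole-genome arrays. The deposited log2 values were made by the authors with RMA (background correction, quantile normalization and probe set summary) and were used as deposited. No scanner intensities, detection calls or scan dates were used, so the number of arrays sets the precision. Probe sets were named from the platform annotation, with symbols updated through RefSeq (GRCh38.p14). Of 54675 probe sets, 41097 named 1 gene, 1801 several and 11777 none, and only the first kind was named.

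A mean per group was fitted to all 24 arrays in limma 3.58.1 (R 4.3.3), with moderated variances and Benjamini-Hochberg adjustment over all probe sets. A call needed an adjusted p under 0.05 and a fold over 1.5, after the thresholds in the methods, and interactions the adjusted p alone. Background shares use 1 probe set per gene. The design text and the methods give different stimulation times.

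The members, the lists and the tests were chosen with earlier results of these data known. Genes named with values were the members called at least once, TNFRSF1A and TNFRSF1B, a preset list (TNF, TNFRSF9, FAS, TNFRSF10B, CD70, NGFR, TNFRSF19) and at most 8 others with the lowest adjusted p. The script was tested on simulated data. Alternatives are listed in the closing section.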

Additional observations from a re-analysis of the deposited data

Results flagged for a closer look

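EDAR, the ectodysplasin receptor, was flagged because its change with TNFα ran in opposite directions in H133W and empty vector cells, without overlap of arrays in either. How many genes do so was not counted. Its change was 0.25 in H133W cells, at 3.87, 3.75 and 4.12 with TNFα, against 3.70, 3.68 and 3.60 unstimulated, and -0.23 in empty vector cells, at 3.79, 3.71 and 3.56 with TNFα, against 3.84, 4.02 and 3.88 unstimulated. Neither change passed the limma test (adjusted p = 0.25 in H133W cells). The difference between both changes was 0.48 (adjusted p = 0.57 in limma) and did not pass. Without the third TNFα array of H133W the change in H133W cells was 0.15 and the difference 0.38. All of these signals lay below the median of all values, and the highest came from the array of H133W with TNFα whose actin signal stood apart. Their part in the difference was not tested. In untransfected cells EDAR changed by -0.22, and SIRT6 cells averaged 3.94 with TNFα, against 3.91 unstimulated.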

How the results depend on the processing

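None of the 22 called gene changes took the opposite sign under the alternatives run for them, and of 347 values of these under another setting, 25 lost their call. Changes that were not called did turn: without the third TNFα array of H133W, TNF in H133W against SIRT6 cells with TNFα was 0.08 in place of -0.11, and those of TNF and TNFRSF9 against empty vector cells with TNFα turned as given in the report. TNFSF15 lost its call in SIRT6 cells with a plain linear model (adjusted p = 0.070) and with arrays quantile normalized again (adjusted p = 0.053), and in untransfected cells with the arrays of the comparison alone (adjusted p = 0.11). FAS lost its call in empty vector cells with arrays centred on their medians (0.58, under the fold) and with the probe set of highest variance (0.56, adjusted p = 0.050). TNFSF13B lost its call in H133W against SIRT6 with TNFα for the arrays of the comparison alone (adjusted p = 0.58), with array weights (0.56, under the fold) and without the 3 arrays of lowest weight (0.54, adjusted p = 0.11). For H133W against empty vector without TNFα, the count of members called was 1. It was 0 when the arrays of the comparison were fitted alone. It was 2 with a variance trend, with dim probe sets left out, with the probe set of highest variance, with array weights, without the 3 arrays of lowest weight, and with any probe set of a gene counted, an alternative added after seeing the data. For H133W against SIRT6 with TNFα, the count was 1. It was 0 for the arrays of the comparison alone, with dim probe sets left out, with array weights and without the 3 arrays of lowest weight, and 2 with no fold threshold. For H133W against SIRT6 without TNFα, it was 1 with array weights and without those 3 arrays, in place of 0. For H133W against empty vector with TNFα, it was 4 with no fold threshold, in place of 0. For TNFα in H133W cells, it was 1 for the arrays of the comparison alone, in place of 4, where TNFRSF9 (adjusted p = 0.32), TNFRSF19 (adjusted p = 0.12) and TNFSF15 (adjusted p = 0.086) were lost. The cause was not tested. Leaving out 1 array at a time, the counts were 1 to 2 for H133W against empty vector without TNFα (2 without vector replicate 3) and 0 to 1 for H133W against SIRT6 with TNFα. With TNFα, they were 4 to 5 in H133W, 3 to 4 in SIRT6, 5 to 6 in empty vector and always 6 in untransfected cells. Over the other settings, they were 1 to 6 in H133W, 3 to 6 in SIRT6, 5 to 7 in empty vector and 5 to 7 in untransfected cells.

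The residuals showed no sign that the replicate numbers in the labels pair the samples, a question that these correlations cannot settle. Arrays of the same number in different groups had residual correlations of -0.48 to 0.42 (median 0.01), and 17 of 84 such pairs were over 0.1. Arrays of different numbers in different groups gave -0.46 to 0.54 (median 0.005), with 49 of 168 pairs over 0.1. With the replicate number as a block, the count for H133W against SIRT6 with TNFα was 0 in place of 1 (TNFSF13B, adjusted p = 0.052), and no other count of members called changed.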
